A study of Mus musculus with 6 samples.

Results

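The reelin pathway was described here through 10 genes listed by name, out of 19938 genes measured in the embryonic mouse neocortex. They were the ligand gene Reln, the receptor genes Vldlr and Lrp8, the adaptor gene Dab1, the kinase genes Fyn and Src, the adaptor genes Crk and Crkl, the exchange factor gene Rapgef1, and Pafah1b1. All 10 had a probe set that the array annotation gives to that gene alone, and where a gene had several, the one with the highest mean over the 6 arrays was used. The mutant group was 3 embryos with a deleted floxed Bcl11a allele on both chromosomes (Bcl11aΔflox/Δflox), and the control group was 3 embryos wild type for Bcl11a (Bcl11a+/+), all at embryonic day 14.5. Neocortex RNA of each embryo was prepared separately and hybridised to 1 Affymetrix Mouse Gene 1.0 ST array. The sources used here name neither the Cre line nor the cells that lost the allele. The series title ties the transcription factor gene Bcl11a to neuronal migration, and the comparison asked how the mRNA of this migration pathway stood in the mutants.

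Reelin is a large glycoprotein secreted into the marginal zone of the developing cortex, mainly by Cajal-Retzius cells. It binds the lipoprotein receptors VLDLR and ApoER2, the product of Lrp8, on migrating neurons, and Fyn and Src then phosphorylate Dab1 on tyrosines. Phosphorylated Dab1 recruits Crk and CrkL with a Rap1 exchange factor, the product of Rapgef1, and Lis1, the product of Pafah1b1 and a regulator of dynein, also acts in this pathway. Mice that lack reelin, both receptors or Dab1 have a cortex with inverted layers.

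Values are log2 intensities after RMA, so a difference of 1 is a doubling, and a level is comparable between arrays for 1 probe set but not between genes. Bcl11a (probe set 10374727) had 11.41, 11.49 and 11.34 in the mutants, against 12.20, 12.30 and 12.26 in the controls. It fell by 0.84 ± 0.06 (SE, limma adjusted p = 0.00201). No source used here places its probes within or outside the deleted exon, so the remaining signal could not be read further. Correlations between arrays lay between 0.993 and 0.997. Of 10 listed genes of the dorsal forebrain and its neurons, 7 were measured, and none passed a limma adjusted p of 0.05. Their mean level was 11.32 to 11.42 in the mutants and 11.33 to 11.40 in the controls. With no other tissue in the series, these levels do not test the tissue label. Erythroid genes stood apart between the genotypes, with a mean level of 9.27 to 9.41 in the mutants and 7.77 to 7.98 in the controls over 7 genes, of which 5 rose. Among these, Hbb-bh1, Slc4a1 and Hba-x rose by 5.02, 1.47 and 1.38 (limma adjusted p = 5.92e-05, 0.00064 and 0.00164). Genes of meninges and pericytes had a mean level of 8.13 in mutant replicate 1, against 7.00 to 7.12 in the other 2 mutants and 6.77 to 6.89 in the controls over 10 genes. Without mutant replicate 1 the median log2 difference of these 10 genes was 0.14 in place of 0.39.

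The upstream sequence of the genes was read from RefSeq on GRCm38.p6 as windows of 300 bases, with 250 bases before the transcription start and 50 after it, and 14 such windows were found for the 10 genes. Bcl11a protein is known, from human red cell precursors, to bind the letters TGACCA. These letters, on either strand, were in 1 of the 14 windows, an alternative start of Lrp8, and in 13.6% of all 32851 windows. The GC box, GGGCGG on either strand, was in 7 of the 14 windows and in 35.7% of all windows. The median GC content was 66.3% in the 14 windows and 52.7% in all windows, with a median of 26.5 and 7 CpG dinucleotides. The Reln window held 6 GC boxes, 47 CpG dinucleotides and 80.7% GC, and 1.35% of all windows held at least 6 GC boxes. The 3 windows printed here belong to the genes whose mutant and control arrays did not overlap, and both motifs are in capitals. Dab1 and Lrp8 had more than 1 window, and for each the window with a motif is printed. Their other windows held neither motif. The TGACCA of the Lrp8 window began 194 bases before that start. The motifs are separate letters that do not overlap each other, and a match describes the sequence and is not evidence of binding. In 5′ to 3′ order of the gene, the windows were Reln on the minus strand at chr5:22344656-22344955, Dab1 on the plus strand at chr4:104367288-104367587 and the alternative start of Lrp8 on the plus strand at chr4:107830703-107831002.
Reln: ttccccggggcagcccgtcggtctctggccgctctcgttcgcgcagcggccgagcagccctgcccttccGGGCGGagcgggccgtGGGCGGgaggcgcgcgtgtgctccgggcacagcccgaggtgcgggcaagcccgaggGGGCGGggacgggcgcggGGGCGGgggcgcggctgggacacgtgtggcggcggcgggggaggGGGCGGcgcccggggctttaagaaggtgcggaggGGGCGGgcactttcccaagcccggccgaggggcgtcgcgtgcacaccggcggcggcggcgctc
Dab1: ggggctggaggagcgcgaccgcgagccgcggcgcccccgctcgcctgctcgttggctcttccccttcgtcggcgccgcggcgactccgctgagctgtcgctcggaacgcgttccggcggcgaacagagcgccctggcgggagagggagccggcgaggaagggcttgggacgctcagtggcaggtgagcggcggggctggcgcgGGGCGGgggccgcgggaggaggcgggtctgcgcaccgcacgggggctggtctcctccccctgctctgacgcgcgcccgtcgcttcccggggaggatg
Lrp8: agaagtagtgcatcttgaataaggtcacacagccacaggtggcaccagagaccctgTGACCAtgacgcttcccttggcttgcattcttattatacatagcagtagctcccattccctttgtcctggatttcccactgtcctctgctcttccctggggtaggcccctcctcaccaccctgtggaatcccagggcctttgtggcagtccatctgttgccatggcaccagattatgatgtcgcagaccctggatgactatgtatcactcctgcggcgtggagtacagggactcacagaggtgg

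Reln, the ligand gene, had the largest difference of the 10 genes and was lower in the mutants, but it did not pass over all genes. Its values (probe set 10528385, Entrez 19699) were 11.03, 10.82 and 10.96 in the mutants, against 11.08, 11.22 and 11.46 in the controls. Every mutant array lay below every control array, although the highest mutant and the lowest control were 0.06 apart. The means were 10.94 ± 0.11 in the mutants and 11.25 ± 0.19 in the controls (SD, n = 3 arrays each). The log2 difference was -0.32 ± 0.10 (SE), with a 95% interval of -0.55 to -0.09, which puts the mutant signal at 80.3% of the control signal. The unadjusted limma p was 0.0127, and 506 genes had a smaller p. Adjusted over all 19938 genes, the limma p was 0.499. An exact permutation test, two-sided, gave p = 0.1, and with 3 arrays a group no smaller p is possible. The smallest difference that passed for any gene was 0.38 on the log2 scale, for Shc3. In bulk tissue, fewer cells that make a transcript and less of it per cell cannot be told apart.

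The size of the Reln difference rested on single arrays. Its direction could not turn when an array was left out or weighted, since every mutant array lay below every control array. It was -0.21 without control replicate 3, the highest control, and -0.26 without mutant replicate 2, the lowest mutant. It was -0.40 without control replicate 1 and -0.36 without mutant replicate 1, the array with the high meningeal genes. In each of the 13 alternative fits it was negative, and in none did it pass, with limma adjusted p between 0.084 with array weights and 0.893 without mutant replicate 2.

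**Figure D1:**
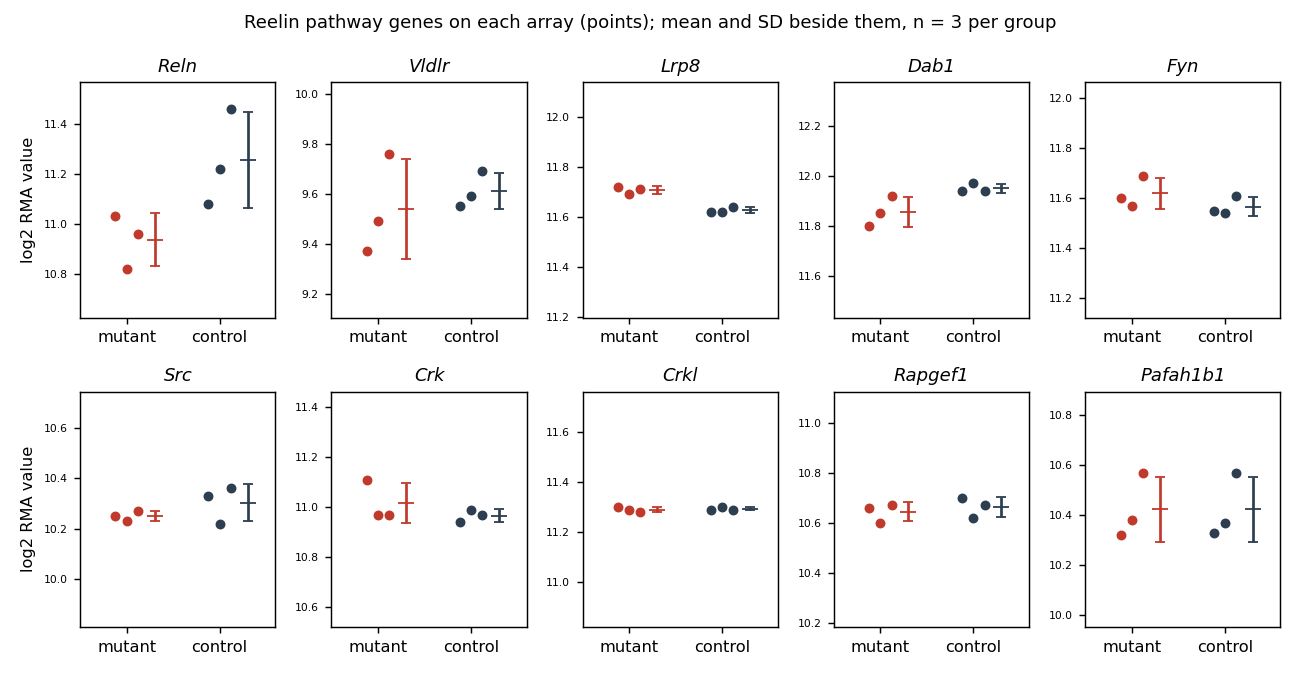
Log2 RMA value (vertical axis, the same span in each panel) of the 10 reelin pathway genes in 3 mutant arrays (red, left) and 3 control arrays (dark, right), with the mean and SD beside the points. Reln is lower on every mutant array, at 10.82 to 11.03 against 11.08 to 11.46, Lrp8 and Dab1 are separated by less than 0.1 in their means, and Crkl is flat.

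The receptor genes differed little. Lrp8, which encodes ApoER2, had 11.72, 11.69 and 11.71 in the mutants, against 11.62, 11.62 and 11.64 in the controls. The groups did not overlap, because the arrays of each group lay within 0.03 of each other. The log2 difference was 0.08 ± 0.05 (SE, 95% interval -0.04 to 0.21, limma adjusted p = 0.9995). Its pooled SD of 0.01 was smaller than that of all but 0.2% of genes, and limma moderates such a small spread towards that of the other genes. Vldlr, which encodes the very low density lipoprotein receptor, had 9.37, 9.49 and 9.76 in the mutants, against 9.55, 9.59 and 9.69 in the controls. The mutant values spanned the control values, and the difference was -0.08 (95% interval -0.30 to 0.15, limma adjusted p = 0.9995). Without mutant replicate 1 the Vldlr difference was 0.01, so its sign rested on that array.

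Dab1, the adaptor that binds both receptors, was slightly lower in the mutants, without passing. It had 11.80, 11.85 and 11.92 in the mutants, against 11.94, 11.97 and 11.94 in the controls, and the groups did not overlap. The log2 difference was -0.09 ± 0.06 (SE, 95% interval -0.23 to 0.04, limma adjusted p = 0.9995), which is 93.7% of the control signal. It lay between -0.13 and -0.07 in the 13 alternative fits. As the groups did not overlap, leaving out or weighting arrays could not turn its sign. The mRNA does not report the phosphorylation or turnover of Dab1 protein, which were not measured.

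The kinase genes overlapped between the genotypes. Fyn had 11.60, 11.57 and 11.69 in the mutants, against 11.55, 11.54 and 11.61 in the controls, a difference of 0.05 (95% interval -0.09 to 0.19). Src had 10.25, 10.23 and 10.27 in the mutants, against 10.33, 10.22 and 10.36 in the controls, a difference of -0.05 (95% interval -0.20 to 0.09). With 1 array left out the Fyn difference ran from 0.02 without mutant replicate 3 to 0.08, and that of Src from -0.10 without control replicate 2 to -0.03 without control replicate 3. Neither interval reached the size of the Reln difference in either direction.

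The adaptor and exchange factor genes that act after Dab1 differed by at most 0.05. Crkl had 11.30, 11.29 and 11.28 in the mutants, against 11.29, 11.30 and 11.29 in the controls, and its 95% interval of the difference was -0.13 to 0.12. Crk had 11.11, 10.97 and 10.97 in the mutants, against 10.94, 10.99 and 10.97 in the controls, so that mutant replicate 1 alone lay above the other arrays. Its difference of 0.05 was 0.0025 without that array. Rapgef1 had 10.66, 10.60 and 10.67 in the mutants, against 10.70, 10.62 and 10.67 in the controls, a difference of -0.02. Its second, dimmer probe set gave 0.02, with 7.80, 7.87 and 7.83 in the mutants and 7.89, 7.83 and 7.71 in the controls. Both sets of Rapgef1 values overlapped between the genotypes.

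Pafah1b1, the Lis1 gene, varied between arrays and had the same mean, to 2 decimals, in both genotypes. It had 10.32, 10.38 and 10.57 in the mutants, against 10.33, 10.37 and 10.57 in the controls. The means were 10.42 ± 0.13 in the mutants and 10.42 ± 0.13 in the controls (SD, n = 3 arrays each), with a 95% interval of the difference of -0.20 to 0.20. In both groups replicate 3 was the highest array for 4 of the 10 genes, which were Vldlr, Fyn, Src and Pafah1b1. The share of all genes with this order was not counted. Over all genes the deviations of the replicate 3 arrays from their group means had a correlation of 0.08. The labels do not say that a replicate number marks a shared litter or day.

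Of the 10 genes, none passed a limma adjusted p of 0.05, where 0.286% of the 19938 genes did. At an unadjusted p of 0.05 it was 1 gene, Reln, where 6.05% of all genes passed. The groups did not overlap for 3 of the 10 genes, where 10.5% of all genes had no overlap. Of these, 2 members were lower and 1 was higher, beside 2.85% and 7.69% of all genes. Of the 10 differences, 7 were negative, while 60.3% of all genes had a positive one. The median of the 10 was -0.012 and that of all genes was 0.02, and the median size of a difference was 0.05 in both. Apart from Reln, the largest difference was 0.09 in size, and the 95% intervals of these 9 genes lay between -0.30 and 0.21. The spread between arrays of 1 group also varied among the genes, with pooled SDs of 0.15 for Reln and Vldlr and 0.13 for Pafah1b1, against 0.09 for the median gene, and of 0.0088 for Crkl.

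**Figure D2:**
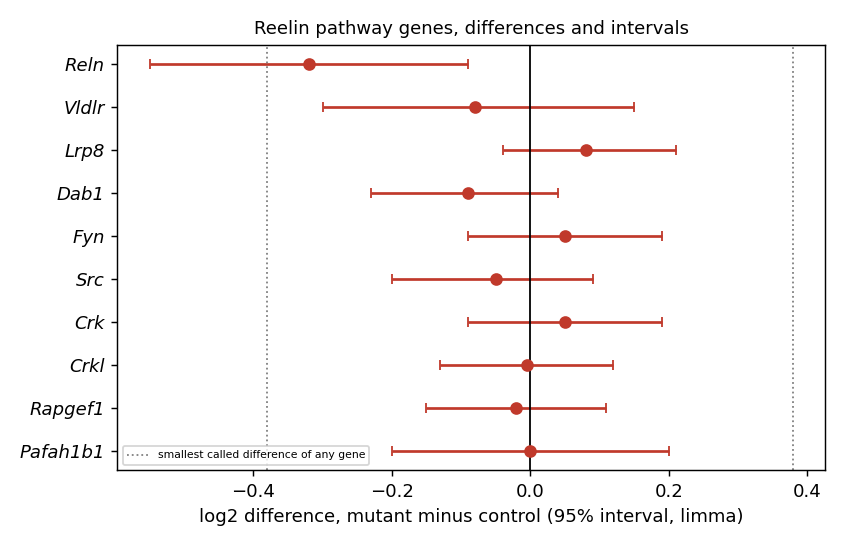
Log2 difference of mutant minus control (horizontal axis) for the 10 reelin pathway genes, with limma's 95% intervals. The Reln interval, -0.55 to -0.09, is the 1 interval that leaves out 0, and the dotted lines at 0.38 on either side mark the smallest difference that passed for any gene.

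Markers of Cajal-Retzius cells, the main source of reelin at this age, were set beside Reln. None of 12 such genes passed over all genes, where 0.286% of all genes did. An unadjusted limma p under 0.05 was found for 7 of the 12, beside 6.05% of all genes. Of these 7, Calb2, Ndnf, Lhx5, Ebf3 and Barhl2 were lower in the mutants, and Lhx1 and Nhlh2 were higher. Ebf3 and Barhl2 differed by -0.21 and -0.17, and Nhlh2 by 0.31. Calb2, the calretinin gene, had 7.45, 7.19 and 7.14 in the mutants, against 7.66, 7.87 and 8.28 in the controls. Its difference was -0.68 ± 0.15 (SE, limma adjusted p = 0.179), and the groups did not overlap. Ndnf, which encodes a secreted neuron-derived factor, had 7.20, 7.25 and 7.42 in the mutants, against 7.42, 7.93 and 8.38 in the controls. Its difference was -0.62 ± 0.20 (SE, limma adjusted p = 0.516), with mutant replicate 3 and control replicate 1 at the same value. Without control replicate 3 it was -0.38. For Reln, Calb2 and Ndnf alike, control replicate 3 was the highest array and control replicate 1 the lowest control. Lhx5, Ebf3, Trp73 and Cacna2d2 of the same list had this order too. Trp73 and Cacna2d2 differed by only -0.0044 and 0.0099, so the order was not limited to lower markers.

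The other Cajal-Retzius genes named here did not share a direction. Lhx5, a LIM homeobox gene, had 7.37, 6.93 and 7.09 in the mutants, against 7.29, 7.55 and 7.66 in the controls, and the groups overlapped (difference -0.37, limma adjusted p = 0.568). Its relative Lhx1 had 7.28, 7.12 and 7.15 in the mutants, against 6.99, 6.95 and 7.01 in the controls, with no overlap and a difference of 0.20 (limma adjusted p = 0.498). Trp73, a p53 family gene that defines a large share of these cells, had 8.10, 8.13 and 8.02 in the mutants, against 7.97, 8.06 and 8.23 in the controls. It was named after its values were seen, and its difference was -0.0044. Over the 12 genes, 5 differences were positive and 7 negative, with a median of -0.05. The mean level of the list was 8.05 to 8.20 in the mutants and 8.00 to 8.37 in the controls, which overlap, and no marker can be read as absent on these arrays. The part of Cajal-Retzius cell number in the Reln difference was not tested.

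**Figure D3:**
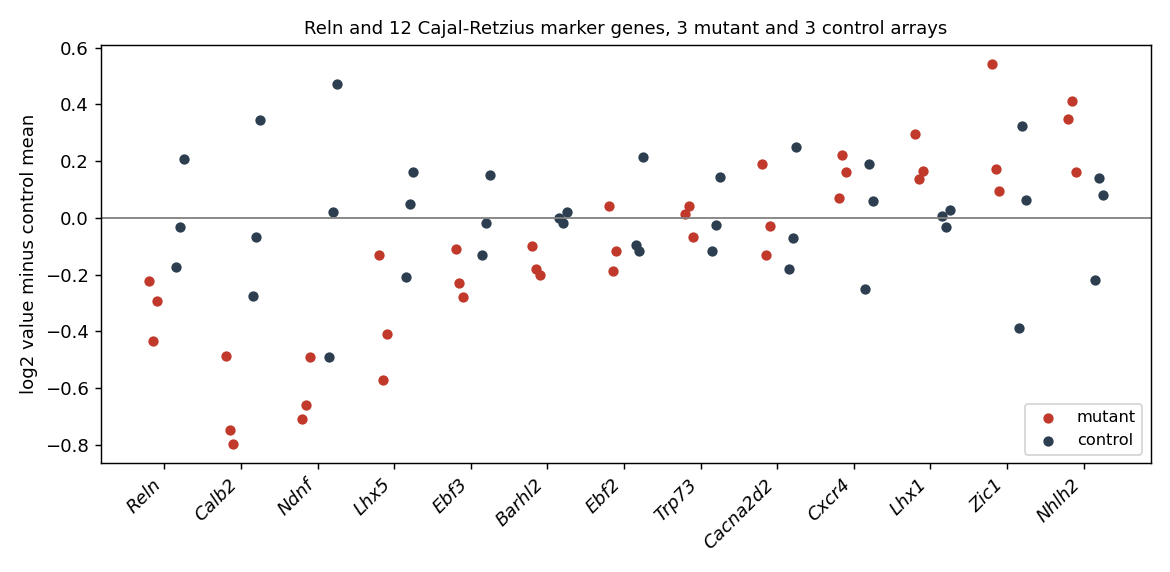
Log2 value minus the control mean (vertical axis) of Reln and of 12 Cajal-Retzius marker genes, ordered by their difference, on 3 mutant arrays (red, left) and 3 control arrays (dark, right). Calb2 at -0.68 and Ndnf at -0.62 lie on the same side as Reln, Trp73 is centred near 0, and Lhx1 and Nhlh2 lie above.

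The 5 genes whose centred values over the 6 arrays were nearest to those of Reln were Necab1, Arg2, Churc1, Slc16a1 and Sec24d. Likeness was measured as the root mean square difference of the centred log2 values, which was 0.042 for Necab1 and 0.052 for Sec24d. Necab1, which encodes a neuronal calcium-binding protein, had 9.06, 8.83 and 8.96 in the mutants, against 9.05, 9.31 and 9.44 in the controls. Arg2, the mitochondrial arginase gene, had 8.70, 8.58 and 8.68 in the mutants, against 8.80, 8.90 and 9.25 in the controls. Their differences were -0.31 and -0.33, and none of the 5 genes passed over all genes. Without control replicate 3 the Arg2 difference was -0.20. The 5 genes were picked out of all those measured, on 6 arrays, and the likeness is a description.

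The wider pathway was covered by 50 further genes in 5 role groups, of which 47 were measured. None passed a limma adjusted p of 0.05, and 7 had an unadjusted p under 0.05, beside 0.286% and 6.05% of all genes. Of the 47 differences, 31 were positive and 16 negative, with a median of 0.02, which is also that of all genes. With array weights Pik3r1 passed, at 0.36 (limma adjusted p = 0.0457), and among the Cajal-Retzius genes Calb2 passed, at -0.66 (limma adjusted p = 0.0175). That setting called 217 genes in all, in place of 57. Its weights were 3.02 for control replicate 2 and 2.18 for mutant replicate 2, against 0.45 to 0.94 for the other arrays. The fit thus rested mostly on 1 array per group.

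Among 7 measured genes of proteins that cut reelin or also bind its receptors, differences ran from -0.37 to 0.50. Adamts4, a metalloproteinase that cleaves reelin, had 7.61, 8.12 and 7.84 in the mutants, against 8.29, 8.13 and 8.26 in the controls. The groups did not overlap by 0.01, and the difference was -0.37 ± 0.12 (SE, limma adjusted p = 0.503). It was -0.25 without mutant replicate 1 and -0.51 without mutant replicate 2. Apoe, the apolipoprotein E gene, whose product binds the same receptors, had 10.44, 9.97 and 9.97 in the mutants, against 9.69, 9.70 and 9.48 in the controls. Its difference was 0.50 ± 0.13 (SE, limma adjusted p = 0.298), with no overlap, and its highest value was on mutant replicate 1. Without that array the Apoe difference was 0.34. Apoe is also made by macrophages, and the 7 microglia and macrophage markers all had positive differences, beside 60.3% of all genes. Their mean level was 7.37 to 7.50 in the mutants and 7.08 to 7.26 in the controls. None of the 7 passed a limma adjusted p of 0.05, and without mutant replicate 3 the positive ones were 6. The part of such cells in the Apoe value was not tested.

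Of 8 measured genes for co-receptors and receptor turnover, 7 had positive differences, with a median of 0.11. Efnb3, an ephrin B gene whose family has been tied to reelin as co-receptors, had 9.46, 9.50 and 9.46 in the mutants, against 9.09, 9.35 and 9.15 in the controls. Its difference was 0.27 ± 0.08 (SE, limma adjusted p = 0.379), with no overlap. Nrp1, a neuropilin that can associate with VLDLR, had 10.83, 10.98 and 11.03 in the mutants, against 11.07, 11.11 and 11.13 in the controls. Its difference was -0.16 (limma adjusted p = 0.813), and it was the 1 negative gene of the group. Without mutant replicate 1 it was -0.10, and 6 of the 8 genes were positive.

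The 3 remaining groups had medians of 0.02, 0.01 and 0.03. The 7 genes for Dab1 kinases, adaptors and turnover ran from -0.11 to 0.10. At the ends were Rnf7, a subunit of the Cul5 ubiquitin ligase that degrades activated Dab1, at -0.11, and Socs6, a SOCS box gene, at 0.10. The 15 measured genes of the Rap1, PI3K and cytoskeletal branches, some of which encode cell surface proteins, ran from -0.12 to 0.33. Pik3r1, the p85 alpha regulatory subunit of PI3-kinase, which binds phosphorylated Dab1, had 10.97, 11.03 and 11.20 in the mutants, against 10.64, 10.69 and 10.89 in the controls. Its difference was 0.33 ± 0.09 (SE, limma adjusted p = 0.339), and the groups did not overlap. Mapt, the gene of the microtubule protein tau, had 10.36, 10.41 and 10.50 in the mutants, against 10.11, 10.28 and 10.30 in the controls, again with no overlap and a difference of 0.19 (limma adjusted p = 0.68). The 10 genes of the Lis1 complex, dynein and Cdk5 ran from -0.10 for Nde1, a Lis1-binding protein, to 0.10 for Cdk5r1, the p35 activator of Cdk5. Small differences such as these moved with single arrays, with Cdk5r1 at 0.03 without mutant replicate 3, Nde1 at -0.05 without mutant replicate 3, Rnf7 at -0.05 without control replicate 2 and Socs6 at 0.06 without control replicate 1.

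**Figure D4:**
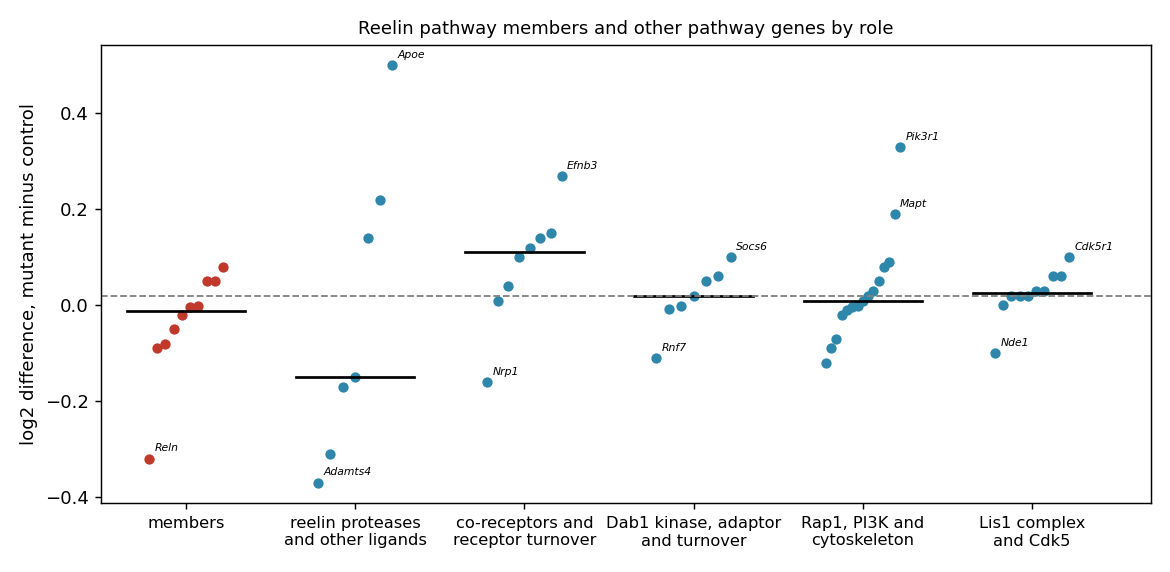
Log2 difference of mutant minus control (vertical axis) for the 10 pathway members (red) and 47 further measured genes in 5 role groups (blue), with group medians as bars and the median of all genes, 0.02, as a dashed line. The widest groups are the ligand-side genes, from -0.37 for Adamts4 to 0.50 for Apoe, and the Lis1 and Dab1 groups stay within 0.11 of 0.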

How the data were processed

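Total RNA of each neocortex was labelled in a whole-transcript sense-target assay and hybridised to 1 array per embryo, per the labels. The deposited log2 values were made by the authors with Affymetrix Expression Console and RMA, per the submitters' processing notes; versions and the array's genome build are not stated there. RMA corrects background, quantile-normalises and summarises probes, so it understates changes of dim genes and hides a shift of most genes. The log2 scale was taken from RMA and from the range of 3.41 to 13.75. Array medians lay between 7.23 and 7.33, and values were used without further scaling. The number of arrays limits the precision, since arrays have no read depth.

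Of 35556 probe sets, 21789 had 1 gene symbol, 1621 several and 12146 none listed in the platform annotation held by GEO, whose names can be outdated. Those with 1 symbol gave 19938 genes, and no symbol changed on matching 21698 of these probe sets to RefSeq by Entrez number. The mutant and control arrays were fitted in limma 3.58.1 and R 4.3.3 (lmFit, eBayes, no covariate), two-sided, with Benjamini-Hochberg adjustment over all genes and a threshold of 0.05. The script was tested on simulated data. Intervals are limma's 95% intervals, and permutation tests enumerated all splits of 3 against 3 arrays.

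The members and gene lists were chosen with earlier results of these data known. Named genes were the 10 members, Bcl11a, any list gene past the threshold (at most 3 in a cell type list other than Cajal-Retzius), the 2 further genes of smallest p in each role group, the 4 of the Cajal-Retzius list, and the 5 genes nearest to Reln. Shc3, Trp73, Nhlh2, Ebf3, Barhl2 and Cacna2d2 were named outside this rule, after their values were seen. Some listed genes were not analysed here. Lists of interneuron, cortical hem and choroid plexus, and endothelial genes were also read, and none of their 8, 5 and 7 measured genes passed. Their medians were 0.08, 0.09 and 0.12. With 1 array left out these lay between -0.01 and 0.14, -0.03 and 0.17, and 0.03 and 0.22. The interneuron genes were not uniform, with 6 positive and 2 negative differences that ran from -0.60 to 0.28. None of the 10 meningeal and pericyte genes passed either, with a median of 0.39, and of 0.14 without mutant replicate 1. Alternatives were other scalings, array weights, a variance trend, a filter on dim genes, the mean of all probe sets, the replicate number as a block and leaving out each array.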

Additional observations from a re-analysis of the deposited data

How the results depend on the processing

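None of the 10 reelin pathway genes passed an adjusted p of 0.05 under any of the 13 alternative fits, and none was under 0.1 in the fit reported. With array weights Reln was at 0.084. Bcl11a passed in all 13, with log2 differences of -0.88 to -0.80. The differences of Reln, Lrp8, Dab1, Fyn, Src and Crk kept their sign in all 13. For Reln, Lrp8 and Dab1, whose groups did not overlap, leaving out or weighting arrays could not turn the sign. Signs turned for values near 0, and the cause was not tested. Vldlr ran from -0.18 to 0.01 with 1 array left out, and was positive without mutant replicate 1. Crkl was 0.0037 with median centring and ran from -0.0091 to 0.0017 with 1 array left out. Rapgef1 was 0.00095 with the mean of its probe sets. Pafah1b1 was 0.0072 with median centring and 0.03 with array weights, and ran from -0.07 to 0.07 when 1 array was left out. The number of genes called was 57, and 217 with array weights, 34 with the replicate block, 107 at an adjusted p under 0.1 and 20 to 50 with 1 array left out, where fewer arrays entered the fit. The lowest count, 20, came without mutant replicate 2 or control replicate 2, and it was 25 without mutant replicate 1 and 33 without mutant replicate 3. Of the 34 genes called with the replicate block, 29 were among the 57. The deviations of same-numbered arrays had correlations of 0.03, -0.14 and 0.08, which does not show pairing, and the block changed no call among the members. With array weights 1 further pathway gene and 1 Cajal-Retzius gene passed, in place of 0 each. The median of the further pathway genes was 0.02 to 0.04 with 1 array left out, and that of the Cajal-Retzius list -0.12 to 0.04.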
